A study of Mus musculus with 6 samples.

Results

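The cytochrome P450 genes were followed in mouse lung tumours labelled as Keap1 knockout or control. All genes of the count table whose symbol has the form Cyp, digits, letters and digits, and that had at least 10 reads summed over the 6 libraries, were taken as members. This gave 54 genes of 56980 gene identifiers. The symbol form matched 94 genes, of which 17 had no read and 23 had 1 to 9 reads. Just inside the minimum of 10 reads stood Cyp19a1 with 10 reads and Cyp11b2 with 11, and just outside it Cyp2j8 with 9 and Cyp4f37 with 8.

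The libraries came from Keap1 knockout tumours (3 samples) and control tumours (3 samples) of a mouse model labelled QKO, taken about 4 months after virus injection and sequenced as mRNA. All 6 are labelled as lung and as small cell lung cancer, a neuroendocrine carcinoma, and all share the QKO background. The labels do not spell out the alleles behind QKO, the promoter of any Cre, how Keap1 was inactivated, the age of the mice or whether each sample is a different animal. The p-values therefore measure the spread between these samples, which may be technical in part. The series asked how Keap1, which marks the transcription factor NRF2 for degradation, acts in such tumours.

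Reads on genes ranged from 18731515 to 23759892 per library. Levels are in CPM, read counts scaled to a common library total after TMM adjustment. Keap1 mRNA itself ranged from 67.5 to 93.0 CPM in knockouts and from 58.7 to 78.4 CPM in controls (log2 fold change 0.18 ± 0.20 SE, adjusted p 0.564 by edgeR's quasi-likelihood test), so its RNA level did not separate the groups. The summed level of 8 neuroendocrine markers ran from 54.5 to 214 CPM in knockouts, against 72.9 to 4840 CPM in controls. Chga, the secretory granule protein chromogranin A, had 0.0933, 0.366 and 0 CPM in knockouts 1 to 3, against 7.92, 0.495 and 948 CPM in controls 1 to 3, so the labelled type was weakly marked in every library but control 3. The controls also stood apart from each other. Control 1 held most of the RNA of 5 squamous basal markers, with 6866 CPM, and control 2 most of that of 6 fibroblast markers, with 33869 CPM. Most of the latter sum was Col1a1 (20424 CPM) and Col1a2 (12074 CPM). Pdgfra and Lum were also highest in control 2. Col3a1 and Dcn were highest in control 3, with 2291 and 238 CPM, against 998 and 57.1 CPM in control 2. In bulk samples, fewer cells of a type and less RNA per cell cannot be told apart.

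Cytochromes P450 are heme enzymes of the endoplasmic reticulum and mitochondria that insert 1 oxygen atom into their substrates, with electrons from NADPH handed on by a reductase. Families 1 to 3 mainly oxidise drugs, carcinogens and other foreign compounds, family 4 hydroxylates fatty acids and eicosanoids, and the higher-numbered families make or break down sterols, bile acids, steroid hormones and vitamins A and D. The lung expresses its own set, best known from club cells of the airway, where Cyp2f2 turns naphthalene into a toxic epoxide. Xenobiotic P450 genes are switched on through receptors such as AHR, CAR and PXR.

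Of the 54 members, 35 had enough reads to be tested and 19 did not. In Keap1 knockout tumours 3 tested members rose and 0 fell at an adjusted p below 0.05 by edgeR's quasi-likelihood test. The 3 are Cyp2a5, Cyp2a4 and Cyp2b9, all of the Cyp2 family on chromosome 7. They make up 8.57% of the members tested, beside 2.42% of all 17901 genes tested that were called higher and 1.89% called lower, or 4.31% in either direction. At an unadjusted p below 0.05 there were 8 members higher and 3 lower, beside 30.7% of all genes in either direction, while DESeq2 called 7 higher and 3 lower and limma voom 4 higher and 0 lower. The same share over all genes was 11.8% higher and 14.8% lower by DESeq2 and 3.71% higher and 2.25% lower by voom. Every knockout lay above every control in 14 members (40.0% of those tested), against 21.5% of all genes tested, and below every control in 3 (8.57%), against 19.1%. The median log2 fold change was 0.58 over the members tested and -0.08 over all genes tested. The filter keeps a gene that is present in 1 group only, so members such as Cyp2b9 and Cyp2g1 entered the test through their knockout reads.

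The Cyp2a subfamily showed the widest separation between the groups. Cyp2a5 (ENSMUSG00000005547), which hydroxylates coumarin and nicotine, had 514, 2544 and 3436 CPM in knockouts 1 to 3, against 18.2, 5.15 and 9.06 CPM in controls 1 to 3. The groups did not overlap, and the lowest knockout was still far above the highest control. Means were 2165 ± 1497 CPM in knockouts and 10.8 ± 6.71 CPM in controls (SD, n = 3 each). The gene rose by edgeR (log2 fold change 7.64 ± 1.02 SE, adjusted p 0.0320). Cyp2a4 (ENSMUSG00000074254), a steroid 15-alpha-hydroxylase in mouse liver, had 15.3, 28.6 and 75.1 CPM in the same knockouts, against 0.508, 0.248 and 0.597 CPM in the controls. It too rose in every knockout, with a log2 fold change of 6.44 ± 0.82 and an adjusted p of 0.03003 by edgeR. Both genes followed the same order among knockouts, with knockout 1 lowest and knockout 3 highest, but not among controls. Cyp2f2, with a log2 fold change of 0.02, also had that knockout order, so an order of 3 libraries says little.

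Cyp2a5 and Cyp2a4 are near-identical copies, and how the authors' counting placed reads that fit both is not given in the sources used here. Their coding sequences (GENCODE M21) agree at 1462 of 1485 bases, an identity of 98.5%, with a longest identical run of 216 bases. For every 100 Cyp2a5 reads there were 2.97, 1.13 and 2.19 Cyp2a4 reads in knockouts 1 to 3, against 2.79, 4.81 and 6.59 in controls 1 to 3. The Cyp2a4 values may therefore hold reads of Cyp2a5, and the rise of Cyp2a4 is uncertain as a change of its own. The stretch where the copies differ most is printed to show how few bases tell them apart. It covers coding bases 580 to 669, counted from the A of the start codon, with the 5 differing bases in capitals:
Cyp2a5: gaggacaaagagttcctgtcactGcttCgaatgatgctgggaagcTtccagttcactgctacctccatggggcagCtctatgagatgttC
Cyp2a4: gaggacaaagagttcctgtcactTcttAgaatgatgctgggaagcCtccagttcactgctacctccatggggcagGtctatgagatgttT

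The promoters of the pair are shown to compare the copies, although the rise of Cyp2a4 is uncertain as a change of its own. They are the RefSeq GRCm38.p6 windows from 250 bases before to 50 bases after the annotated start, at chr7:26835089-26835388 for Cyp2a5 and chr7:26306942-26307241 for Cyp2a4, both on the plus strand. Capitals mark the 5 bases at which the aligned windows differ, and 294 bases are identical (97.7%):
Cyp2a5: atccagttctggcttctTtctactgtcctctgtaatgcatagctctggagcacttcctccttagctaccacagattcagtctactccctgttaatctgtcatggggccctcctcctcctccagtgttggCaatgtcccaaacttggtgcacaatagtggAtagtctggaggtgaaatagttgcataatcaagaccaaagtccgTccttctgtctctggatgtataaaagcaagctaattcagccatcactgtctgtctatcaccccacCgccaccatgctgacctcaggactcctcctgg
Cyp2a4: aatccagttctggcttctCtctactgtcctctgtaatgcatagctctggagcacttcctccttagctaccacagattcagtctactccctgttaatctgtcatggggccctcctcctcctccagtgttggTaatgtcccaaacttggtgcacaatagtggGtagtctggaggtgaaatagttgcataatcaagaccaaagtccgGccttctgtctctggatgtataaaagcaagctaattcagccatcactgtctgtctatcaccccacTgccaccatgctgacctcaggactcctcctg
Both windows hold the letters TATAAA, at position -29 for Cyp2a5 and -28 for Cyp2a4, counted from the start site with the first base before it as -1. This word, searched on both strands, occurs in 13.6% of the 32851 RefSeq promoter windows of the same length. Neither window holds TGACNNNGC, the core of the antioxidant response element that NRF2 binds. That word occurs in 12.4% of all windows and in 6 of the 43 members with an entry, Cyp2c65, Cyp2j6, Cyp4f14, Cyp4f18, Cyp4f39 and Cyp8b1. A match is a description of the letters, and a missing match concerns this window alone.

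The Cyp2b subfamily lies in the same stretch of chromosome 7. Cyp2b9 (ENSMUSG00000040660), best known from mouse liver, had 1.03, 1.51 and 4.66 CPM in knockouts 1 to 3, against 0, 0.0495 and 0 CPM in controls 1 to 3. The knockouts summed to 161 reads and the controls to 1 read, a pooled ratio of 146 with a 95% Poisson interval of 25.9 to 5810 that covers counting error only. The adjusted p was 0.0414 by edgeR, so the gene rose, but its level stayed low. Its nearest copy, Cyp2b13, shares 92.7% of the coding sequence and had 4 reads in all. Cyp2b10, the classic phenobarbital-inducible P450 and CAR target, had 72.8, 156 and 674 CPM in knockouts 1 to 3, against 48.9, 41.7 and 1.39 CPM in controls 1 to 3. The groups did not overlap, yet the spread within each was wide, with a log2 fold change of 3.29 ± 1.39 and an adjusted p of 0.171 by edgeR (0.0311 by DESeq2). Cyp2b19, an arachidonic acid epoxygenase of skin, had 1.07, 0.824 and 1.14 CPM, against 0.914, 0.198 and 0.498 CPM in controls, and the groups overlapped.

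The promoter windows of Cyp2b10 at chr7:25897408-25897707 and Cyp2b9 at chr7:26173159-26173458 (GRCm38.p6, plus strand) are shown for comparison with the Cyp2a pair. They are 71.7% identical, and capitals mark each match on either strand to GCGTG, the core of the element bound by AHR:
Cyp2b10: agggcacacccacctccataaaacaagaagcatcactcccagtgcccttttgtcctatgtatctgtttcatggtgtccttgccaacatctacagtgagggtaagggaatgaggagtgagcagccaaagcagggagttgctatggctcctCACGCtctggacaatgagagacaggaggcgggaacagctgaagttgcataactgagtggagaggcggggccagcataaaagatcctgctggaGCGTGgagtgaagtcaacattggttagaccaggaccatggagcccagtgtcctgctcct
Cyp2b9: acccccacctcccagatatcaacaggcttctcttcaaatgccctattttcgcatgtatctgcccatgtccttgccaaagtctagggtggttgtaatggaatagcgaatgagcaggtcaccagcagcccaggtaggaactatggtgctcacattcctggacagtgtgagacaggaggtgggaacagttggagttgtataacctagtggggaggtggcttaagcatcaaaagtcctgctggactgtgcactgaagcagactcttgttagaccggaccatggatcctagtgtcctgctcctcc
Cyp2b10 matched at positions -101 (minus strand) and -9 (plus strand), and Cyp2b9 did not match. The word occurs in 32.4% of all windows and in 14 of the 43 members with an entry, Cyp1a1 and Cyp1b1 among them.

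Cyp2g1, known from the olfactory mucosa, lay between Cyp2a5 and Cyp2b9 by size of the fitted log2 fold change. It had 16.5, 12.8 and 46.6 CPM in knockouts 1 to 3, against 0, 0.0495 and 0.548 CPM in controls 1 to 3. The groups were far apart, with a log2 fold change of 6.94 ± 1.39, but the adjusted p of 0.0520 by edgeR missed the threshold. It passed in 4 of the 14 alternatives, with a filter of 1 CPM in 3 libraries (0.0469), by DESeq2 and limma voom (0.0345 by voom) and without control 3 (0.0158). It missed in the others, with adjusted p-values up to 0.227 (without knockout 3).

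In the gene order of RefSeq's GRCm38 annotation, the stretch from Cyp2s1 to Cyp2t4 on chromosome 7 holds 18 protein-coding genes, 13 of them P450 genes and 9 of these members. The 3 called members lie here, and the 5 with every knockout above every control in the stretch are Cyp2a4, Cyp2a5, Cyp2b9, Cyp2b10 and Cyp2g1. Over all genes tested, 2.42% were called higher and 21.5% had every knockout above every control. Cyp2b19, inside the stretch, and the members at both ends did not follow those 5. Cyp2f2, the naphthalene-activating enzyme of club cells, had 217, 239 and 249 CPM in knockouts 1 to 3, against 540, 126 and 27.1 CPM in controls 1 to 3. Its log2 fold change was 0.02 ± 0.94 (adjusted p 0.988 by edgeR), and the knockouts were close together while the controls spanned the range on both sides. Cyp2s1, an epithelial P450 that AHR can induce, had 302, 211 and 220 CPM in knockouts, against 125, 410 and 20.5 CPM in controls, and did not pass the test (adjusted p 0.795). Cyp2t4, a little studied gene, had 0.466, 0.412 and 0.703 CPM in knockouts, against 0.609, 0.842 and 3.09 CPM in controls, and overlapped. The other 5 coding genes between them had at most 9 reads each.

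**Figure D1:**
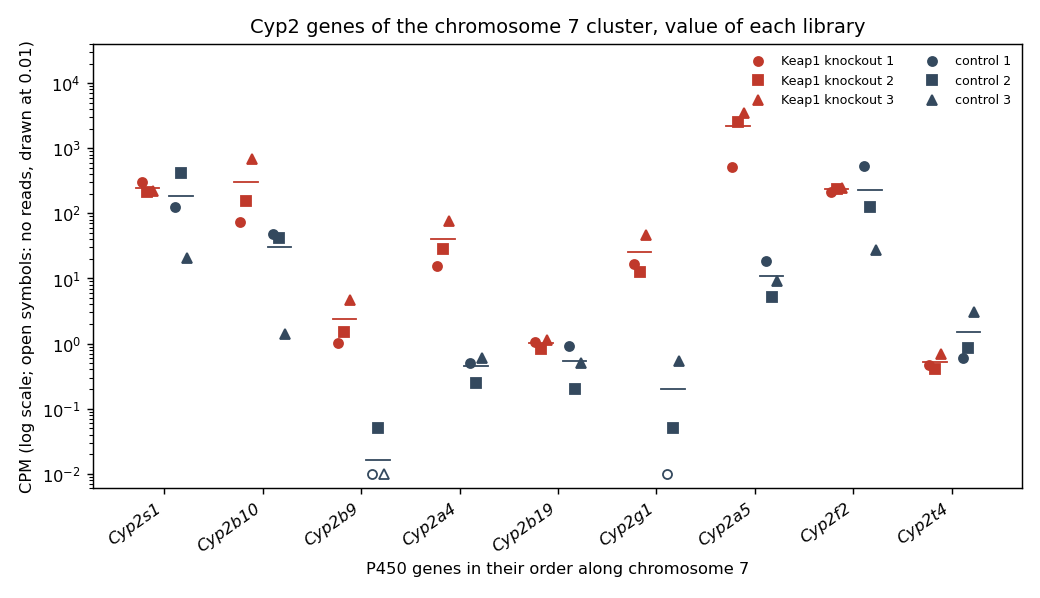
CPM of the 9 members of the chromosome 7 stretch in each library on a log axis, with Keap1 knockouts in red left of controls in dark blue, lines at the group means and open symbols for no reads (drawn at 0.01 CPM). Cyp2b10, Cyp2b9, Cyp2a4, Cyp2g1 and Cyp2a5 show every knockout above every control, while Cyp2s1, Cyp2b19, Cyp2f2 and Cyp2t4 overlap.

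Other measured features also differed between the libraries. Xist, the RNA that coats the inactive X chromosome of female cells, had 0.280, 1291 and 1429 CPM in knockouts 1 to 3, against 2.33, 1497 and 1.54 CPM in controls 1 to 3, so high and low levels occurred in both groups. Cyp2a4 and Cyp2b9 are known for higher levels in female than in male mouse liver. Among libraries high in Xist, Cyp2a5 averaged 2990 CPM in knockouts (n = 2) and 5.15 CPM in the control (n = 1), a ratio of 580. Among libraries low in Xist it had 514 CPM in the knockout (n = 1) and 13.6 CPM in controls (n = 2), a ratio of 37.7. The Cyp2a4 ratios were 209 and 27.7, and those of Cyp2b10 were 9.95 and 2.90.

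Markers of lung epithelium were mixed between the groups. The summed level of 7 club cell markers ran from 2920 to 7268 CPM in knockouts, against 605 to 1949 CPM in controls, and 2 of the 7 rose by edgeR, Scgb3a2 and Aldh1a1 (both adjusted p 0.0391). Of the other club markers, Scgb3a1, Hp, Cckar and Bpifa1 overlapped between the groups, the last 2 with negative log2 fold changes (-1.43 and -2.15) that did not pass. Scgb1a1, the defining secretoglobin of club cells, had 1574, 3501 and 5331 CPM in knockouts 1 to 3, against 1017, 1355 and 119 CPM in controls 1 to 3. The order was that of Cyp2a5 among knockouts but not among controls, and an order of 3 libraries says little. The sum of 8 alveolar type 2 markers ran from 1525 to 4468 CPM in knockouts, against 220 to 1207 CPM in controls, with 0 of 8 called by edgeR. Both other epithelial lists overlapped, with 408 to 642 CPM in knockouts and 113 to 1006 CPM in controls for 6 alveolar type 1 markers, and 57.9 to 101 CPM in knockouts and 52.5 to 70.2 CPM in controls for 6 ciliated cell markers. Neither list had a marker called by edgeR. The sum of 9 hepatocyte markers ran from 22.0 to 97.2 CPM in knockouts, against 10.6 to 156 CPM in controls, with 3 of 9 tested and 0 called. No marker in these 5 lists was without reads in all libraries, and the part of these cell types and of Xist level in the Cyp2a and Cyp2b results was not tested.

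The calls of the 3 members needed the full set of knockouts, as did nearly every call over all genes. Without knockout 1, 2 or 3, edgeR called 2, 0 and 0 of all genes tested, against 771 with all libraries. At an unadjusted p below 0.05 by edgeR the same fits gave 3758, 3372 and 3321 genes. Leaving out knockout 1, 2 or 3 took the adjusted p to 0.0719, 0.196 and 0.175 for Cyp2a5, to 0.0950, 0.196 and 0.157 for Cyp2a4 and to 0.138, 0.217 and 0.198 for Cyp2b9. Leaving out control 2 took it to 0.0608, 0.0591 and 0.0760 for the same genes. By adjusted p, edgeR then called 0 members higher and 0 lower, beside 0.773% and 0.642% of all genes. At an unadjusted p below 0.05 that fit gave 9 members higher and 1 lower, beside 5778 of all 19006 genes tested. Leaving out control 1 took the adjusted p of Cyp2b9 to 0.0651. Without control 3, by contrast, 7 members were called higher and 1 lower, beside 8.4% and 8.8% of all genes, and without control 1 there were 4 higher, beside 1.9%. The log2 fold change stayed between 7.09 and 8.25 for Cyp2a5 and between 5.61 and 6.86 for Cyp2a4 over the alternatives computed.

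The remaining members that act on foreign compounds were mixed. This role held 20 members, of which 14 were tested, 3 rose (those above), 7 had every knockout above every control and 0 every knockout below. The shares over all genes were 2.42% called higher, 21.5% above and 19.1% below. The median log2 fold change of the role was 1.28. Cyp1b1, which oxidises polycyclic hydrocarbons and oestrogens and is induced by AHR, had 131, 20.6 and 13.5 CPM in knockouts 1 to 3, against 304, 34.8 and 33.9 CPM in controls 1 to 3. Library 1 of each group stood high, the groups overlapped, and the log2 fold change of -1.17 ± 1.23 did not pass (adjusted p 0.548). Cyp1a1, the best known AHR target, was too low to test, with 6, 4 and 9 reads in knockouts, against 3, 12 and 3 reads in controls.

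Cyp3a13, the main Cyp3a gene here, had 29.4, 33.0 and 41.4 CPM in knockouts, against 26.3, 16.5 and 0.0996 CPM in controls. All knockouts exceeded all controls, but knockout 1 and control 1 were close and control 3 was nearly silent, so the log2 fold change of 1.27 ± 1.33 did not pass (adjusted p 0.545). Cyp3a57 had 1.31, 1.10 and 1.01 CPM in knockouts, against 0.305, 0.347 and 0.747 CPM in controls, without overlap (adjusted p 0.137). Cyp2d22, of the subfamily of human CYP2D6, had 17.5, 13.2 and 19.1 CPM in knockouts, against 6.45, 14.3 and 12.7 CPM in controls, and the groups overlapped.

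Cyp2e1, which oxidises ethanol and small solvents, had 4.71, 0.183 and 1.19 CPM in knockouts, against 0.152, 0.0495 and 0.597 CPM in controls. The value of knockout 1 stood apart, and the adjusted p was 0.198. In the same library the hepatocyte marker Alb stood at 29.7 CPM, against at most 0.102 CPM in any control, but Ttr, another of the 9 hepatocyte markers, had 46.7 CPM there and 152 CPM in control 3. Cyp2c68 was seen in 2 libraries only, with 125 reads in knockout 1 and 22 in control 2, and was too sparse across libraries to test. Cyp2c65, known from the gut, had 1.82 CPM in knockout 1 and none in the other knockouts, against 1.67, 1.19 and 0 CPM in controls (adjusted p 0.837). Cyp2d34 had 0 reads in knockouts and 24, 0 and 5 reads in controls, most of them in control 1, and the groups overlapped at 0. Near copies limit several of these genes. At least 90% of the coding sequence was shared with another P450 gene by 10 members, of which 6 were tested and 3 were those that rose; Cyp2c68, Cyp2c65, Cyp3a57, Cyp4f16 and Cyp2d34 are also among them, with identities of 97.2%, 96.3%, 94.2%, 92.0% and 91.6%.

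Members that act on fatty acids and eicosanoids numbered 14, of which 12 were tested and 0 were called by edgeR in either direction. At an unadjusted p below 0.05 there was 1 higher and 2 lower, beside 30.7% of all genes in either direction. Every knockout exceeded every control in 5 (21.5% of all genes), every knockout lay below in 2 (19.1% of all genes), and the median log2 fold change was 0.58. Within Cyp4f, whose enzymes inactivate leukotrienes and hydroxylate long-chain fatty acids, members went both ways. Cyp4f16, the highest of them in CPM, had 48.4, 49.5 and 43.9 CPM in knockouts 1 to 3, against 41.9, 33.0 and 22.3 CPM in controls 1 to 3 (log2 fold change 0.55 ± 0.27, adjusted p 0.219). Cyp4f13 had 41.5, 44.3 and 50.5 CPM in knockouts, against 29.8, 25.4 and 8.81 CPM in controls (adjusted p 0.168). Both were tight among knockouts and lowest in control 3. Cyp4f15 showed the widest positive difference of the subfamily, with 14.1, 12.4 and 32.2 CPM in knockouts, against 9.44, 1.64 and 0.149 CPM in controls (log2 fold change 2.38 ± 1.28, adjusted p 0.256).

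Cyp4f18, the leukotriene B4 hydroxylase of mouse neutrophils, pointed the other way. It had 2.24, 1.88 and 1.76 CPM in knockouts, against 5.94, 5.85 and 3.14 CPM in controls, with no overlap (log2 fold change -1.34 ± 0.42, adjusted p 0.0991). It was the 1 member called lower without control 3. The sum of 6 macrophage markers was also lower in knockouts, at 116 to 138 CPM, against 147 to 567 CPM in controls, with 0 of 6 called by edgeR. Adgre1 and Csf1r had every knockout below every control, with Csf1r at 232 CPM in control 2. Cd68, Mrc1, C1qa and Marco overlapped between the groups, Marco with a positive log2 fold change (0.15). The part of macrophages in the Cyp4f18 difference was not tested. Cyp4f14 was untested and uneven, with 44, 0 and 4 reads in knockouts, against 5, 53 and 0 in controls.

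Cyp4v3, the mouse counterpart of the retinal fatty acid hydroxylase CYP4V2 in humans, had 49.8, 43.7 and 46.3 CPM in knockouts, against 13.3, 29.6 and 5.28 CPM in controls. The knockouts were nearly equal and above every control (log2 fold change 1.54 ± 0.60, adjusted p 0.150). Cyp2u1, a fatty acid omega-hydroxylase, had 0.560, 0.275 and 0.615 CPM in knockouts, against 1.37, 2.53 and 8.17 CPM in controls. It had the most negative log2 fold change of the members tested, -3.04 ± 0.81, with an adjusted p of 0.0784 by edgeR and 0.00180 by DESeq2. Cyp2j6, an arachidonic acid epoxygenase, had 37.3, 46.2 and 41.0 CPM in knockouts, against 65.9, 5.65 and 1.84 CPM in controls. Control 1 alone lay above the knockouts, and without it the log2 fold change was 3.48 (adjusted p 0.0475), against 0.76 with all libraries (0.691). Cyp4b1, a lung P450 that activates 4-ipomeanol, had 23.1, 37.3 and 28.6 CPM in knockouts, against 35.1, 54.5 and 7.22 CPM in controls, and overlapped. The other tested genes of this role did not pass, with adjusted p-values of 0.788 for Cyp2j9, 0.330 for Cyp4f17, 0.501 for Cyp4f39 and 0.797 for Cyp4f40.

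**Figure D2:**
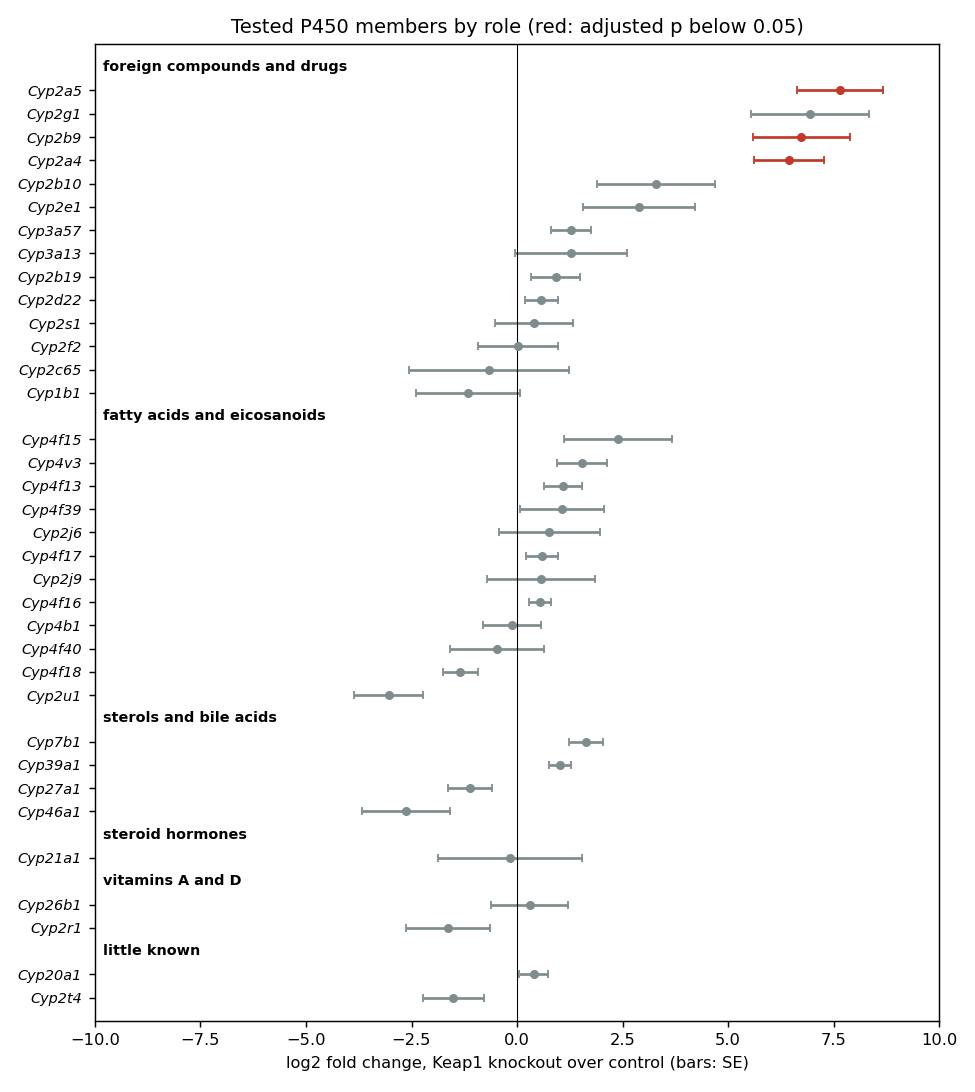
Fitted log2 fold change (Keap1 knockout over control) of the 35 tested members by role, with bars of 1 SE and the 3 members past an adjusted p of 0.05 in red. Cyp2a5, Cyp2g1, Cyp2b9 and Cyp2a4 lie between 6.44 and 7.64, Cyp2u1 lies lowest at -3.04, and the fitted value of Cyp2b9, with 1 control read, depends on the prior count.

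Sterol and bile acid P450 genes went in both directions. Of 5 members 4 were tested and 0 were called by edgeR; at an unadjusted p below 0.05, 2 were higher and 1 lower, beside 30.7% of all genes in either direction. Cyp7b1, which hydroxylates oxysterols and is a step of the acidic bile acid pathway, had 12.4, 8.56 and 8.04 CPM in knockouts 1 to 3, against 2.13, 3.37 and 3.83 CPM in controls 1 to 3 (log2 fold change 1.64 ± 0.41, adjusted p 0.0701). Cyp39a1, the 24-hydroxycholesterol 7-alpha-hydroxylase, had 76.0, 114 and 126 CPM in knockouts, against 52.2, 42.8 and 61.5 CPM in controls (1.02 ± 0.26, adjusted p 0.0717). Both had groups clear of each other and small SEs. Each passed in 2 of the 14 alternatives, by DESeq2 (0.000306 for Cyp7b1 and 0.0106 for Cyp39a1) and without control 3 (0.0380 and 0.0404). Each missed in the other 12, with adjusted p-values up to 0.256 for Cyp7b1 and 0.261 for Cyp39a1, both without knockout 2.

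The other sterol hydroxylases pointed down. Cyp46a1, the neuronal cholesterol 24-hydroxylase, had 0.187, 1.01 and 1.45 CPM in knockouts, against 1.62, 2.97 and 12 CPM in controls, with no overlap and the highest value in the neuroendocrine-marked control 3 (log2 fold change -2.64 ± 1.04, adjusted p 0.153). Cyp27a1, the mitochondrial sterol 27-hydroxylase, had 2.14, 3.71 and 2.59 CPM in knockouts, against 5.38, 9.71 and 3.24 CPM in controls, and 1 knockout overlapped the controls (adjusted p 0.207).

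P450 genes of steroid hormone synthesis were barely expressed. Of 6 members 1 was tested, Cyp21a1, the steroid 21-hydroxylase, with 5.22, 0.962 and 0.176 CPM in knockouts, against 5.94, 1.24 and 0 CPM in controls (adjusted p 0.955). Cyp17a1, the 17-alpha-hydroxylase, had 49, 12 and 8 reads in knockouts, against 4, 0 and 3 in controls. Cyp11a1, the cholesterol side-chain cleavage enzyme, had 22, 22 and 7 reads in knockouts, against 3, 1 and 0 in controls. Both had more reads in every knockout than in any control, at levels too low to be tested. The sum of 6 steroidogenic cell markers was 8.15 to 9.14 CPM in knockouts, against 10.2 to 15.1 CPM in controls, with 2 of 6 tested and 0 called by edgeR. Star and Akr1b7 made up most of that sum and overlapped between the groups, while Nr5a1 had at most 0.140 CPM in any library, with every knockout above every control.

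Vitamin A and D enzymes and the little known members showed no call by edgeR, with 2 of 5 and 2 of 4 tested. Cyp26b1, which degrades retinoic acid, had 7.79, 22.9 and 24.7 CPM in knockouts, against 10.7, 31.8 and 2.64 CPM in controls (adjusted p 0.845). Cyp2r1, a vitamin D 25-hydroxylase, had 1.68, 0.916 and 0.440 CPM in knockouts, against 3.65, 5.40 and 0.349 CPM in controls (adjusted p 0.310). In both genes the controls spanned a wider range than the knockouts. Cyp20a1, a P450 without a settled substrate, had 39.1, 37.5 and 40.3 CPM in knockouts, against 17.2, 42.6 and 29.1 CPM in controls (adjusted p 0.466). The 19 untested members reached at most 5.83 CPM in any library and 147 reads in all. They were Cyp1a1, Cyp2c55, Cyp2c68, Cyp2d10, Cyp2d26 and Cyp2d34 among drug-metabolising genes, Cyp4a32 and Cyp4f14 among fatty acid hydroxylases, Cyp8b1 of bile acid synthesis, Cyp11a1, Cyp11b1, Cyp11b2, Cyp17a1 and Cyp19a1 of steroid synthesis, Cyp26a1, Cyp26c1 and Cyp27b1 of vitamins A and D, and Cyp2ab1 and Cyp2w1.

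Levels were compared between genes as CPM per kb of coding sequence. Summed over the 54 members this gave 1158, 2505 and 3541 in knockouts 1 to 3, against 934, 646 and 197 in controls 1 to 3. Without Cyp2a5 the sums were 811, 792 and 1227 in knockouts, against 922, 642 and 191 in controls, and the groups then overlapped. Cyp2a5 alone took 54.3 ± 21.5% of all P450 reads in knockouts and 1.63 ± 1.30% in controls (SD, n = 3 each). It was the highest member per kb in every knockout, while the highest was Cyp2f2 in control 1, Cyp2s1 in control 2 and Cyp39a1 in control 3. At least 10 CPM was reached by 20 members in each knockout, against 17, 13 and 9 in controls 1 to 3.

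**Figure D3:**
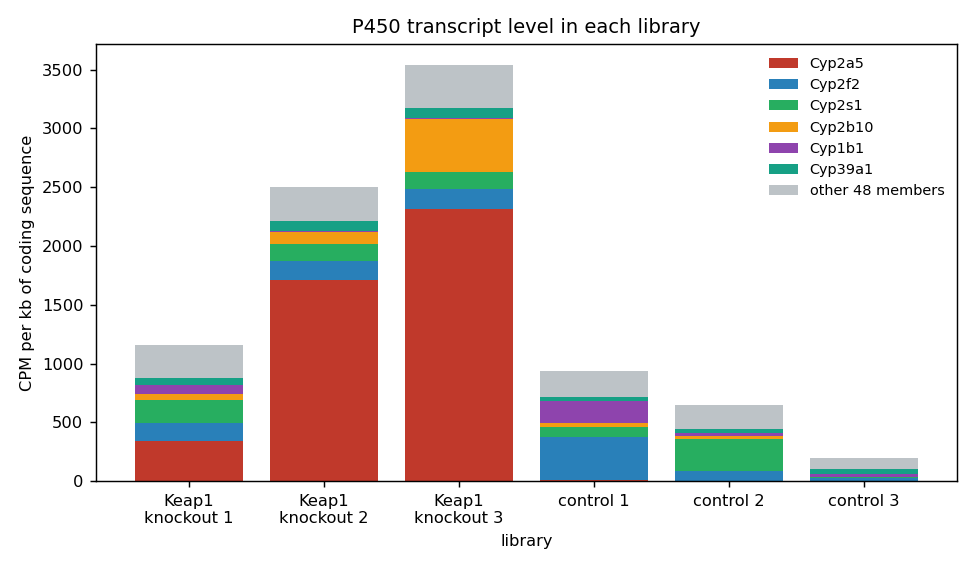
Summed P450 level of each library in CPM per kb of coding sequence, Keap1 knockouts left of controls, stacked by the 6 leading members and the other 48. Cyp2a5 fills most of the bars of knockouts 2 and 3, and the rest of the knockout bars (811, 792 and 1227) overlaps the controls.

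The members varied less among knockouts than among controls. The coefficient of variation (SD over mean) was smaller in knockouts for 29 of the 35 members tested (82.9%), with a median of 0.249 in knockouts and 0.895 in controls. Over all genes tested with a value the share was also 82.9%, with medians of 0.157 and 0.403, so the narrower spread was not confined to P450 genes.

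P450 enzymes need electrons, heme and regulators. Of 13 listed electron donors and partners 12 were tested, 2 rose and 0 fell by edgeR, and 8 had every knockout above every control. Over all genes tested, 2.42% were called higher and 21.5% had every knockout above every control. The median log2 fold change of the list was 0.80. Cyb5a, cytochrome b5, which passes electrons to many P450 enzymes, had 475, 812 and 1013 CPM in knockouts 1 to 3, against 80.8, 50.6 and 21 CPM in controls 1 to 3 (log2 fold change 3.92 ± 0.60, adjusted p 0.0376). Its order among knockouts was that of Cyp2a5, but its order among controls was not, and an order of 3 libraries says little. Cyb5r1, a member of the cytochrome b5 reductase family, had 135, 141 and 159 CPM in knockouts, against 36.0, 55.5 and 34.0 CPM in controls (1.79 ± 0.24, adjusted p 0.0320). Por, the NADPH reductase that serves all microsomal P450 enzymes, had 321, 275 and 313 CPM in knockouts, against 563, 293 and 92.9 CPM in controls (-0.06 ± 0.60, adjusted p 0.955). Leaving out knockout 1, 2 or 3 took the adjusted p of Cyb5a by edgeR to 0.130, 0.216 and 0.198. That of Cyb5r1 became 0.138, 0.204 and 0.193. The same fits called 2, 0 and 0 of all genes tested. Leaving out control 2 took the adjusted p of Cyb5a to 0.0699.

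**Figure D4:**
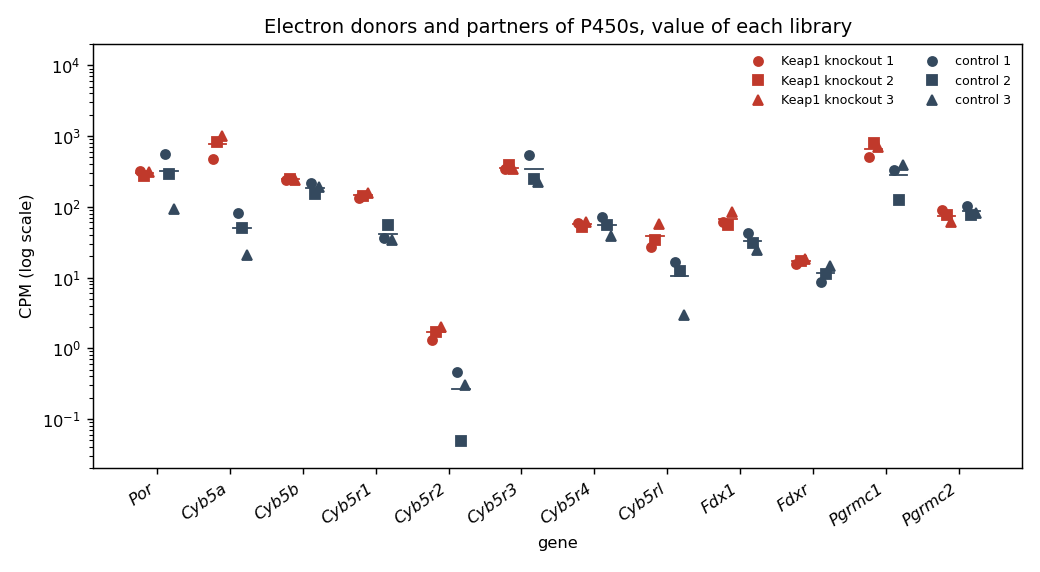
CPM of the 12 tested electron donors and partners in each library on a log axis, Keap1 knockouts in red left of controls in dark blue, with lines at the group means. Cyb5a and Cyb5r1 show the knockouts well above the controls, and the Por values of the knockouts lie within the control range of 92.9 to 563.

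Of 9 heme synthesis genes all were tested and 0 were called by edgeR. At an unadjusted p below 0.05 by edgeR, 4 were higher and 1 lower, beside 30.7% of all genes in either direction. Every knockout lay above every control in 5 of the 9 and below in 2, beside 21.5% and 19.1% of all genes tested. The median log2 fold change of the list was 0.60. Alad, the porphobilinogen synthase, had 217, 223 and 196 CPM in knockouts, against 32.8, 94.7 and 26.8 CPM in controls (2.04 ± 0.51, adjusted p 0.0720). Of 30 regulators 22 were tested and 0 called by edgeR, with 4 higher and 1 lower at an unadjusted p below 0.05, a share below the 30.7% of all genes. Every knockout lay above every control in 7 of those tested (31.8%), Cebpa, Cebpb, Nr1h2, Nr1h3, Ppard, Pparg and Rxra. Every knockout lay below in 1 (4.55%), Vdr. The shares over all genes tested were 21.5% and 19.1%. Ahr had 95.2, 59.5 and 88.7 CPM in knockouts, against 329, 117 and 32.5 CPM in controls (-0.98 ± 0.77, adjusted p 0.421). The genes of CAR and PXR were among the 8 untested regulators. Nr1i3, which encodes CAR, had 2 reads in control 3 and 0 in every other library. Nr1i2, which encodes PXR, had 105, 20 and 8 reads in knockouts 1 to 3, against 4, 6 and 7 in controls 1 to 3. Nfe2l2, which encodes NRF2, had 156, 158 and 167 CPM in knockouts, against 194, 167 and 53.4 CPM in controls (0.21 ± 0.46, adjusted p 0.779). Vdr, the vitamin D receptor, had 2.14, 1.65 and 1.14 CPM in knockouts, against 41.6, 59.7 and 5.53 CPM in controls (-4.43 ± 0.92, adjusted p 0.0538), every knockout below every control.

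The authors' deposited table, made with DESeq2 on these libraries, listed 47 of the 54 members. By its adjusted p, 8 members were higher in knockouts and 3 lower, beside 7.1% and 10.7% of all genes in that table. In the authors' deposited table, those higher were Cyp2a5, Cyp2a4, Cyp2g1, Cyp2b9, Cyp7b1, Cyp11a1, Cyp39a1 and Cyp2b10, and those lower Cyp2u1, Cyp4f18 and Cyp46a1. The log2 fold change of Cyp2a5 in the authors' deposited table was 7.64, with an adjusted p of 4.61e-19.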

How the data were processed

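Messenger RNA of 3 Keap1 knockout and 3 control lung tumour samples was sequenced. Whole-number read counts per Ensembl gene were deposited without normalization, and STAR alignment to mm39 preceded them, per the submitters' processing notes. What counted the reads, with which strand setting and rule for multi-mapping reads, is not given in the sources used here; near copies and overlapping genes are therefore uncertain. The authors' deposited table holds a mean signal (baseMean), log2 fold changes with SE, the Wald statistic (a score) and raw and adjusted p-values from DESeq2, per the file headers.

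Genes were filtered with filterByExpr, scaled by TMM and tested two-sided with edgeR 4.0.16 (R 4.3.3, robust quasi-likelihood fit, Benjamini-Hochberg adjustment over all genes tested, threshold 0.05), with no covariate. Symbols were paired with 52073 of 56980 identifiers. Promoters were taken from RefSeq (GRCm38.p6), which covered 43 members, and coding sequences from GENCODE M21, aligned with biopython 1.88; these are of an earlier build than mm39, so no other coordinates are given. The fit was tested on simulated data. Same-numbered samples did not deviate together (correlations of 0.0176, 0.00012 and 0.0507), so numbers were not used as pairs. The fit was repeated with upper-quartile and RLE scaling, without a filter, with 1 CPM in 3 libraries, DESeq2 1.42.0, voom (limma 3.58.1), leaving out each sample, the sample number as a block and, added after seeing the data, Xist level as a term.

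The members and lists were chosen with earlier results of these data known, and roles were assigned by hand from textbook knowledge. Members were named if past the threshold, if highest in CPM in a subfamily with a tested member, if untested with at least 100 reads, or if over a log2 fold change of 4 in size; partner genes if past the threshold (up to 8 a list), and Por, Nfe2l2 and Ahr always. Other genes named with values were chosen after their values were seen. They include Cyp1a1, Cyp2b19, Cyp2d10, Cyp2d34, Cyp3a57, Cyp4f13, Cyp4f15, Cyp4f18, Cyp11a1, Cyp17a1, Cyp26c1, Alad, Vdr, Nr1i2, Nr1i3 and single markers. Results for some genes are left out.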

Additional observations from a re-analysis of the deposited data

How the results depend on the processing

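The 3 members called higher numbered 3 with RLE scaling, upper-quartile scaling or no filter, 4 with 1 CPM in 3 libraries and 4 by limma voom, but 7 by DESeq2. With the sample number as a replicate block 0 members were called higher (adjusted p 0.131 for Cyp2a5, 0.112 for Cyp2a4 and 0.129 for Cyp2b9), and with Xist level as a term, chosen after seeing the data, also 0 (0.0935, 0.0870 and 0.0900). Leaving out 1 sample gave 0 to 7 higher and 0 to 1 lower; DESeq2 gave 3 lower. Over all genes tested, the 771 calls became 465 with no filter, 4642 by DESeq2, 0 with the replicate block, 26 with Xist level as a term, and 0 to 3209 without 1 sample. Among partner genes 12 electron donors, 9 heme synthesis genes and 22 regulators were tested by edgeR on all libraries. Their 2 calls became 14 by DESeq2, beside 11.8% of all genes called higher and 14.8% lower. They became 0 with the replicate block, 0 with Xist level as a term, and 0 to 8 without 1 sample. The 8 came without control 3, beside 8.4% of all genes called higher and 8.8% lower. Beside counts of 0, edgeR gave 4026 genes at an unadjusted p below 0.05 with the replicate block. Each alternative that adds a term or drops a sample leaves fewer degrees of freedom, but the counts moved both ways. Without knockout 1, 2 or 3 edgeR called 2, 0 and 0 of all genes, and without control 1, 2 or 3 it called 735, 269 and 3209. The cause of these moves was not tested.

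Changes of sign concerned genes that missed the threshold. Under limma voom the log2 fold change was 0.81 for Cyp21a1, 0.28 for Cyp4b1, 0.72 for Cyp4f40 and 0.28 for Por. With the replicate block it was 0.29, 0.22, 0.068 and 0.26 for the same genes. Cyp2f2 gave -0.0014 with RLE scaling and by DESeq2. Without 1 sample the values ran from -2.04 to 1.77 for Cyp21a1, -0.50 to 1.63 for Cyp2f2, -0.59 to 0.50 for Cyp4b1, -1.05 to 0.37 for Cyp4f40, -0.50 to 0.66 for Por, -1.46 to 0.12 for Ahr, -2.84 to 0.68 for Cyp1b1, -0.20 to 1.49 for Cyp26b1, -7.33 to 0.028 for Cyp2c65, -0.13 to 1.76 for Cyp2s1 and -0.17 to 0.55 for Nfe2l2. RLE scaling and DESeq2 placed the median of all genes at -0.11 and no filter at -0.31, against -0.08.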

Other observations

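3 P450 genes whose symbols lie outside the form used for membership were tested, and 0 were called by edgeR (0 at an unadjusted p below 0.05). Cyp51, the lanosterol demethylase of cholesterol synthesis, had 49.98, 39.1 and 51.6 CPM in knockouts 1 to 3, against 49.3, 69.1 and 98.2 CPM in controls 1 to 3, with a log2 fold change of -0.62 and an adjusted p of 0.202. Ptgis, the prostacyclin synthase, had 9.79, 15.4 and 11.4 CPM in knockouts, against 8.02, 72.4 and 6.02 CPM in controls. The highest value stood in control 2, which also had the highest fibroblast marker sum, most of it Col1a1 and Col1a2. Tbxas1, the thromboxane synthase, had an adjusted p of 0.394.

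Among members too low to test, Cyp26c1, which degrades retinoic acid, had 2, 0 and 0 reads in knockouts and 15, 4 and 2 reads in controls, a pooled ratio of 0.0865 (95% Poisson interval 0.00983 to 0.354, counting error only). Cyp2d10 had 7, 7 and 9 reads in knockouts and 2, 0 and 0 reads in controls, a pooled ratio of 10.4 (2.58 to 91.4). Its coding sequence is 94.7% identical to that of its nearest copy.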
